A study of Mus musculus with 4 samples.

Results

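The genes described here are 10 endocytic receptor, adaptor and carrier genes that visceral endoderm is known to express. They were Amn, Cubn, Lrp2, Dab2, Ttr, Afp, Apoa1, Apob, Apoe and Rbp4. They were chosen by name, as all non-control probes whose gene name in the scanner files is one of these symbols, which gave 14 probes for 10 genes among 35242 genes with a value. RNA of 4 mouse cell populations was measured, with 1 array per population: the lines iPS-OSH and iPS-J, both induced pluripotent stem (iPS) cells, which are body cells returned to a stem cell state; ESC, stem cells derived from the embryo; and MEF, fibroblasts of mouse embryos. iPS-OSH, iPS-J and MEF had the C57BL/6 genetic background, and ESC had 129SV. The pluripotent populations were grown with LIF, the cytokine that keeps mouse stem cells undifferentiated, in 15% serum, and MEF in 10% serum with no LIF listed. The labels do not say how the iPS lines were made, give no age or passage, and name no second culture of any population, so the spread between cultures is unknown and no difference between populations could be tested.

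Visceral endoderm is the epithelium that covers the early mouse embryo outside the epiblast. It takes up maternal proteins, lipids and vitamins by endocytosis and secretes many of the plasma proteins that the liver makes later. Its uptake machine centres on a few proteins: cubilin (Cubn) has no membrane anchor and reaches the cell surface through amnionless (Amn), while megalin (Lrp2) is a large receptor of the low density lipoprotein receptor family. Disabled-2 (Dab2) is the adaptor that links megalin to the clathrin coat. Among the secreted carriers, transthyretin (Ttr) binds thyroid hormone and retinol-binding protein, retinol-binding protein 4 (Rbp4) carries retinol, and alpha-fetoprotein (Afp) is the fetal relative of albumin. Apolipoproteins A-I (Apoa1), B (Apob) and E (Apoe) carry lipid: the first is the main protein of high density lipoprotein, the second the scaffold of very low density lipoprotein, and the third a ligand of receptors of the megalin family.

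Each value rests on oligonucleotides of 60 bases, and 3 of them are shown because they read the Amn and Cubn pair and Apoe, the carrier printed 10 times with a strong signal. The Cubn probe shown is the second, dimmer probe of that gene.

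Amn probe (mm9, chr12:112514095-112514243, plus strand): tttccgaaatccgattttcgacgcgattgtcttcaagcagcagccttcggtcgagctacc
Cubn probe (mm9, chr2:13205609-13205668, minus strand): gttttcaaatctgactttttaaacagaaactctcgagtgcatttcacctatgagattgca
Apoe probe (mm9, chr7:20281732-20281791, minus strand): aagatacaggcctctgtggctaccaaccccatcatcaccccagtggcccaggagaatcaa

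The brighter Cubn probe lies at chr2:13197978-13198037 and the brighter Lrp2 probe at chr2:69262566-69262625, both on the minus strand, and the Dab2 probe at chr15:6390616-6390675 on the plus strand. Among the carriers, the Afp probe lies at chr5:90937781-90937840, the Apoa1 probe at chr9:46037921-46037980 and the brighter Apob probe at chr12:8012697-8012756, all on the plus strand, and the Rbp4 probe at chr19:38191120-38191179 on the minus strand (all mm9). The 149 bases that the Amn probe spans on the genome exceed its length, while the Cubn and Apoe probes each span 60. Exon and UTR positions of the probes were not used here. The 4 receptor and adaptor genes were all highest on the iPS-J array, and the 250 bases upstream of their first listed start site are shown for this reason, credited to RefSeq, with matches to the searched motifs in capitals.

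Amn upstream (GRCm38.p6, chr12:111270846-111271095, plus strand): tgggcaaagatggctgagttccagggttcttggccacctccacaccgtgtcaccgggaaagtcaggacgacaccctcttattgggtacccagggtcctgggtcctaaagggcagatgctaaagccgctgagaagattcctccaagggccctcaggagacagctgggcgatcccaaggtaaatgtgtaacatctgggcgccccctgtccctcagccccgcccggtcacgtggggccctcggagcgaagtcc
Cubn upstream (GRCm38.p6, chr2:13491877-13492126, minus strand): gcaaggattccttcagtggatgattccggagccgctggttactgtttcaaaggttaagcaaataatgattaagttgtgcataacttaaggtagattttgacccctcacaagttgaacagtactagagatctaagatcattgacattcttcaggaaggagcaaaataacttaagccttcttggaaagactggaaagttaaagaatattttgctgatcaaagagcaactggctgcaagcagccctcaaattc
Lrp2 upstream (GRCm38.p6, chr2:69586030-69586279, minus strand): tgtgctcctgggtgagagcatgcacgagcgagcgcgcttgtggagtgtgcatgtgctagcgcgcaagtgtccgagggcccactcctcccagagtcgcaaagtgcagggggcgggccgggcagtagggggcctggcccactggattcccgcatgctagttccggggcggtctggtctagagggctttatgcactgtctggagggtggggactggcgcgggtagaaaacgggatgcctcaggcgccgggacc
Dab2 upstream (GRCm38.p6, chr15:6299539-6299788, plus strand): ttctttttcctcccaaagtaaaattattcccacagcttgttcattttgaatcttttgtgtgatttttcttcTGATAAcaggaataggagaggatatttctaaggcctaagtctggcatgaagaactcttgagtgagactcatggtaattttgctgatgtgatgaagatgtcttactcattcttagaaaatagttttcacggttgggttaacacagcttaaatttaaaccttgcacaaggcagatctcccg

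Letters bound by the endoderm factor families were searched on both strands: AGATAA as well as AGATAG, with the variants TGATAA as well as TGATAG, for GATA factors, GTTAAT for HNF1, TGTTTAC as well as TATTTAC for forkhead factors, and CAAAGTCCA for HNF4, with no overlap between matches of different motifs in the members' windows. The Dab2 window held 1 GATA match, starting 179 bases before the start site, and the Amn, Cubn and Lrp2 windows held none of these letters. GATA letters occurred in 26.5% of 32851 such upstream windows, HNF1 letters in 6.43%, forkhead letters in 5.76% and HNF4 letters in 0.384%. Of 13 start sites listed for 9 members, Ttr not being searched, 6 had a match to any of these motifs, and they belonged to 5 genes: Dab2, Afp, Apoa1, Apoe and Rbp4. GATA letters were found for Dab2, Apoa1 and Apoe, HNF1 letters for Afp, Apoe and another start site of Dab2, and forkhead letters for Rbp4. The share of all windows with a match to any of the motifs was not computed, so this count has no background beside it.

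Depth here is the brightness of an array. Between 67.0% (iPS-J) and 81.7% (MEF) of spots were well above background, and the 75th percentile of the signal, to which every array was scaled, lay between 1241 (iPS-J) and 1765 (MEF). Signals below are the processed fluorescence intensity of the brightest probe of a gene on a linear scale, and differences are log2 differences of the scaled signal. The error beside a difference is the spot SD, the spread between repeated spots of like brightness on the same arrays. For Apoe, Apoa1 and Afp, printed 10 times, that SD was divided by the square root of the number of kept spots. Their errors are thus standard errors over spots, not the same measure as for the other members. Both kinds of error leave out the spread between cultures, labellings and hybridizations. Marker genes were read against the labels. All 10 pluripotent cell markers were higher in each of the 3 pluripotent populations than in MEF, and their summed signal was 348, 445 and 530 times the 75th percentile in iPS-OSH, iPS-J and ESC and 5.74 times in MEF. In the same units, the summed signal of 10 fibroblast markers was 301 in iPS-OSH cells, 55.3 in iPS-J cells, 44.6 in ESC and 998 in MEF, and in iPS-OSH each of the 10 exceeded both its iPS-J and its ESC level by at least 2-fold. The MEF array was scanned in one session, both iPS arrays in another and the ESC array in its own. Population and scan session therefore cannot be told apart, except between iPS-OSH and iPS-J, and strain cannot be told apart from population in comparisons with ESC.

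The endocytic receptors were highest in iPS-J. On their brightest probes Amn, Cubn and Lrp2 had the same order on the 4 arrays: iPS-J highest, then ESC, then iPS-OSH, and MEF lowest. Every step of that order exceeded the spot SD. The smallest step lay between iPS-OSH and ESC for Amn and Lrp2, at log2 differences of -1.09 and -1.02, and between iPS-OSH and MEF for Cubn, at 1.27. In RNA from a whole culture, fewer cells of a type and less RNA per cell cannot be told apart.

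Amn, the membrane anchor of the pair, had a signal of 927 in iPS-OSH cells, 15335 in iPS-J cells, 1650 in ESC and 120 in MEF. The iPS-J array stood alone, and all 3 pluripotent arrays lay above MEF. Its log2 difference from MEF was 3.12 ± 0.42 in iPS-OSH cells, 7.50 ± 0.42 in iPS-J cells and 4.21 ± 0.43 in ESC (spot SD, 1 array each). With detection set by the spike-in control probes instead, MEF gave only a bound, and these became at least 1.93, 6.31 and 3.02. Between the pluripotent lines, Amn was 9.79-fold higher in iPS-J than in ESC (log2 difference 3.29 ± 0.15) and 20.8-fold lower in iPS-OSH than in iPS-J (log2 difference -4.38 ± 0.10).

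Cubn, the receptor for intrinsic factor with vitamin B12 and for apolipoprotein A-I, had a signal of 1230 in iPS-OSH cells, 39892 in iPS-J cells, 3471 in ESC and 574 in MEF on its brighter probe. Its gap between the iPS lines was the widest of all members, 40.9-fold lower in iPS-OSH than in iPS-J (log2 difference -5.35 ± 0.10). Against ESC it was 12.1-fold higher in iPS-J (3.60 ± 0.15) and 3.37-fold lower in iPS-OSH (-1.75 ± 0.14). The second Cubn probe, whose sequence is shown above, had a signal of 103 in iPS-OSH cells, 2025 in iPS-J cells and 175 in ESC, and it was not well above background in MEF, at 18.9. That probe gave the same order, with log2 differences of 3.60 ± 0.22 for iPS-J minus ESC and -4.63 ± 0.22 for iPS-OSH minus iPS-J, but iPS-OSH minus ESC was -1.03 ± 0.29, against -1.75 on the brighter probe.

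Lrp2, or megalin, had a signal of 2583 in iPS-OSH cells, 20273 in iPS-J cells, 4390 in ESC and 761 in MEF. The log2 difference from MEF was 1.94 ± 0.13 in iPS-OSH cells, 5.24 ± 0.14 in iPS-J cells and 2.96 ± 0.17 in ESC. Lrp2 was 4.86-fold higher in iPS-J than in ESC and 9.89-fold lower in iPS-OSH than in iPS-J. A second, dim Lrp2 probe was not well above background in iPS-OSH, at 17.5, and had a signal of 134 in iPS-J, 79.4 in ESC and 49.8 in MEF. It again placed iPS-J highest and ESC next, but iPS-J minus ESC was 0.83 ± 0.45, under 2-fold, against 2.28 ± 0.15 on the brighter probe. On the dim probe iPS-OSH lay below MEF, by at least 0.57 on the log2 scale. The difference of the signals as measured was -1.33, with a spot SD of 0.88. Taking the median over both probes lowered iPS-J minus MEF to 3.59, iPS-J minus ESC to 1.55 and ESC minus MEF to 2.03, widened iPS-OSH minus ESC to -1.73, and gave no value for iPS-OSH minus MEF.

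Dab2, the clathrin adaptor, departed from the receptors in MEF. Its signal was 1213 in iPS-OSH cells, 5699 in iPS-J cells, 911 in ESC and 3263 in MEF, so that iPS-J was again highest but MEF came second. Against MEF, Dab2 was 2.48-fold higher in iPS-J (log2 difference 1.31 ± 0.12), 2.38-fold lower in iPS-OSH (-1.25 ± 0.11) and 2.65-fold lower in ESC (-1.41 ± 0.16). The difference between iPS-J and MEF was 0.81, under 2-fold, in the deposited values without scaling. iPS-OSH and ESC lay 0.15 ± 0.14 apart, within about 1 spot SD, and this sign turned in 1 of 8 alternatives. Dab2 is also known from macrophages and fibroblasts, and the summed signal of 12 macrophage markers, in units of the 75th percentile, was 22.8 in iPS-OSH cells, 14.6 in iPS-J cells, 9.40 in ESC and 38.5 in MEF. The sums follow the brightest markers. Gene by gene, 1 of the 12 was at least 2-fold higher in iPS-J than in ESC, 1 lower and 10 within 2-fold. Their median log2 difference was -0.50. All 12 macrophage and all 10 fibroblast markers were well above background on every array, and their part in the Dab2 values was not tested. The other Dab2 probe was not well above background on any array, with signals of 7.54 to 10.2.

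**Figure D1:**
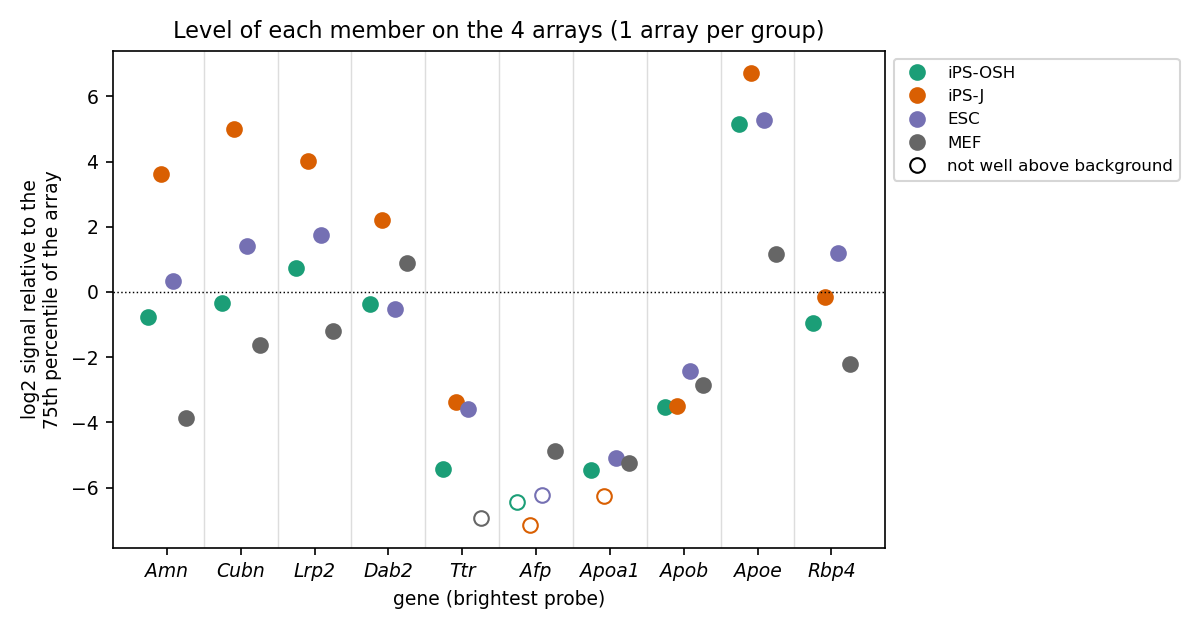
Signal of each of the 10 members (x axis, brightest probe) on a log2 scale relative to the 75th percentile of the array (y axis), with 1 point per array in the order iPS-OSH, iPS-J, ESC, MEF. Open points were not well above background, and the iPS-J point is the highest for Amn, Cubn, Lrp2, Dab2, Apoe and, within spot noise of ESC, Ttr, while MEF is the lowest for Amn, Cubn, Lrp2, Ttr, Apoe and Rbp4.

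The secreted carriers did not move as a group. Apoe and Rbp4 were bright and higher in all 3 pluripotent populations than in MEF, Ttr was dim and higher in iPS-J and ESC, Apob was dim and within 2-fold of MEF on its brighter probe, and Afp and Apoa1 were near background everywhere.

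Apoe was printed 10 times on each array, so its spread within an array was measured directly. The kept spots ran between 53545 and 57678 in iPS-OSH cells (7 spots), 121721 and 141469 in iPS-J cells (10 spots), 42830 and 59010 in ESC (10 spots) and 3740 and 4177 in MEF (8 spots). The iPS-J and MEF spots overlapped with those of no other array, whereas the iPS-OSH and ESC spots overlapped. Apoe was 16.0-fold higher in iPS-OSH, 47.0-fold in iPS-J and 17.3-fold in ESC than in MEF. The log2 differences were 4.0 ± 0.04, 5.56 ± 0.04 and 4.11 ± 0.06, with the standard error over spots. It was 2.72-fold higher in iPS-J than in ESC and 2.93-fold lower in iPS-OSH than in iPS-J. The gap between iPS-OSH and ESC, -0.11 ± 0.05, turned to 0.26 under spike-in scaling and to 0.15 in the deposited values.

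**Figure D2:**
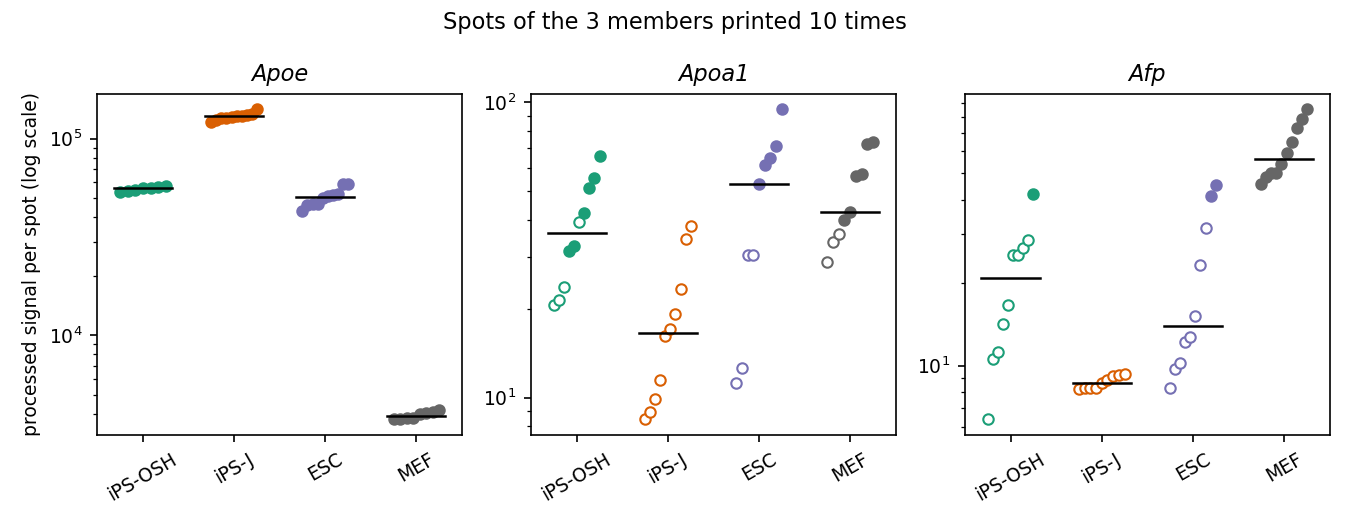
Processed signal of single spots (y axis, log scale) of the 3 members printed 10 times, by array (x axis), with the median as a line and spots not well above background open. The Apoe medians are 56178, 129692, 50624 and 3890 in iPS-OSH, iPS-J, ESC and MEF, while no Apoa1 spot exceeds 94.7 and no Afp spot 85.5.

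Rbp4, the retinol carrier, was the only member that was highest in ESC by more than 2-fold. Its signal was 807 in iPS-OSH cells, 1118 in iPS-J cells, 2966 in ESC and 385 in MEF, an order in which each step exceeded the spot SD. Against MEF it was 2.37-fold higher in iPS-OSH, 4.13-fold in iPS-J and 10.4-fold in ESC. Against ESC it was 4.39-fold lower in iPS-OSH (log2 difference -2.14 ± 0.15) and 2.52-fold lower in iPS-J (-1.33 ± 0.15), the opposite direction from the receptors in iPS-J.

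Ttr, which binds Rbp4 in plasma, had signals of only 36.0 in iPS-OSH cells, 120 in iPS-J cells and 109 in ESC, and it was not well above background in MEF, at 14.6. The iPS-J and ESC arrays were the high ones and did not differ beyond spot noise, with a log2 difference of 0.22 ± 0.37. Ttr was at least 1.2-fold higher in iPS-OSH, at least 5.03-fold in iPS-J and at least 4.32-fold higher in ESC than in MEF. In iPS-OSH it was 4.21-fold lower than in iPS-J (-2.07 ± 0.44) and 3.62-fold lower than in ESC (-1.86 ± 0.48). Under normexp background correction these shrank to -1.26 and -1.16, still past 2-fold, and the log2 difference from MEF was 1.66 in iPS-J and 1.56 in ESC. With detection required on both arrays, or set by the spike-in control probes, Ttr gave no value against MEF, and the count of higher members was 6 in iPS-J and 5 in ESC.

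Apob had signals of 137 in iPS-OSH cells, 110 in iPS-J cells, 242 in ESC and 246 in MEF. ESC and MEF differed by 0.41 ± 0.31, a sign that turned in 3 of 8 alternatives, and iPS-OSH and iPS-J differed by -0.03 ± 0.28. Apob was 2.12-fold lower in iPS-OSH and 2.09-fold lower in iPS-J than in ESC, values next to the 2-fold limit that fell under it with normexp correction, quantile normalization or spike-in scaling. A second Apob probe was not well above background in iPS-OSH or iPS-J and had 85.8 in ESC and 80.6 in MEF. On that probe Apob was at least 3.46-fold lower in iPS-OSH and at least 2.33-fold lower in iPS-J than in ESC, and at least 2.41-fold lower in iPS-OSH than in MEF. With the median over both probes, the log2 differences from ESC were -1.60 in iPS-OSH and -1.72 in iPS-J, and those from MEF were -1.13 and -1.26, past 2-fold.

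Afp and Apoa1 are the members for which these arrays gave least signal. Afp had 1 of 10 spots well above background in iPS-OSH, 0 of 9 kept spots in iPS-J, 2 of 10 in ESC and 10 of 10 in MEF, where the spots ran between 45.8 and 85.5. The highest Afp level was thus that of the fibroblast array, though 3.37% of its 75th percentile, and Afp was at least 1.78-fold lower in iPS-OSH than in MEF. Apoa1 had 6 of 10 spots well above background in iPS-OSH, 0 of 10 in iPS-J, 5 of 9 in ESC and 6 of 9 in MEF. Its measured log2 differences from MEF were -0.20 ± 0.27 in iPS-OSH and 0.16 ± 0.30 in ESC, both smaller than their standard error over spots. In iPS-J it gave no bound against MEF and is counted below as within 2-fold. Both members were thus not well above background on the iPS-J array, where the receptors were highest.

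Counted over all members against MEF, iPS-OSH had 5 of 10 members that were higher by 2-fold or more and 1 lower, iPS-J had 7 higher and 0 lower, and ESC had 6 higher and 1 lower. Among all genes compared, 12.8% were higher and 23.4% lower in iPS-OSH, 16.2% higher and 24.6% lower in iPS-J, and 22.1% higher and 16.5% lower in ESC. The median log2 difference of the members was 0.75 in iPS-OSH cells, 2.33 in iPS-J cells and 2.54 in ESC, against -0.32, -0.27 and 0.13 over all genes. The iPS-J median is the lower bound of Ttr and leaves out Apoa1. The iPS-OSH and ESC medians each average a lower bound of Ttr with a measured value, so both are lower bounds. The iPS-J median is a lower bound only for the members without Apoa1, and leaving out that dim gene can raise it. The iPS-J and ESC medians have no stable order: they were 3.44 and 2.71 with normexp correction, 4.01 and 2.51 with quantile normalization, 5.24 and 2.99 over members detected on both arrays, 5.40 and 3.02 with detection above the spike-in control probes, and 2.96 and 2.11 with the median over probes. The iPS-OSH median reached 1.60 with detection above the spike-in control probes. These comparisons share the MEF array. With the deposited values, iPS-OSH had 5 higher and 2 lower, and iPS-J had 6 higher and 1 lower.

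Against ESC, an array that both iPS lines share as the comparator, 9 members could be compared, Afp being well above background on none of the pluripotent arrays. In iPS-OSH 0 of the 9 were at least 2-fold higher and 6 lower, and in iPS-J 5 were higher and 2 lower. Over all genes 8.76% were higher and 26.5% lower in iPS-OSH, and 5.4% higher and 24.1% lower in iPS-J. The members' median was -1.09 in iPS-OSH and 1.44 in iPS-J, against -0.30 and -0.20 for all genes. The lower members in iPS-OSH included Amn and Lrp2 at -1.09 and -1.02, which were under 2-fold at -0.72 and -0.65 with spike-in scaling, where 3 members stayed lower. With quantile normalization or spike-in scaling, iPS-J had 5 higher and 1 lower.

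Between the iPS lines, which shared a strain, a medium and a scan session, 0 of 9 members were at least 2-fold higher and 6 lower in iPS-OSH than in iPS-J. Those 6 were Amn, Cubn, Lrp2, Dab2, Ttr and Apoe. Over all genes 8.22% were higher and 7.3% lower, with a median of -0.01, while the members' median was -2.32. The split of all genes moved with the scaling: of the genes past 2-fold, 53.0% were higher in iPS-OSH, against 78.3% in the deposited values and 68.6% with spike-in scaling. The 6 lower members stayed 6 under both. The fibroblast markers ran the other way, at 301 in iPS-OSH and 55.3 in iPS-J, and their part in the members' differences was not tested.

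**Figure D3:**
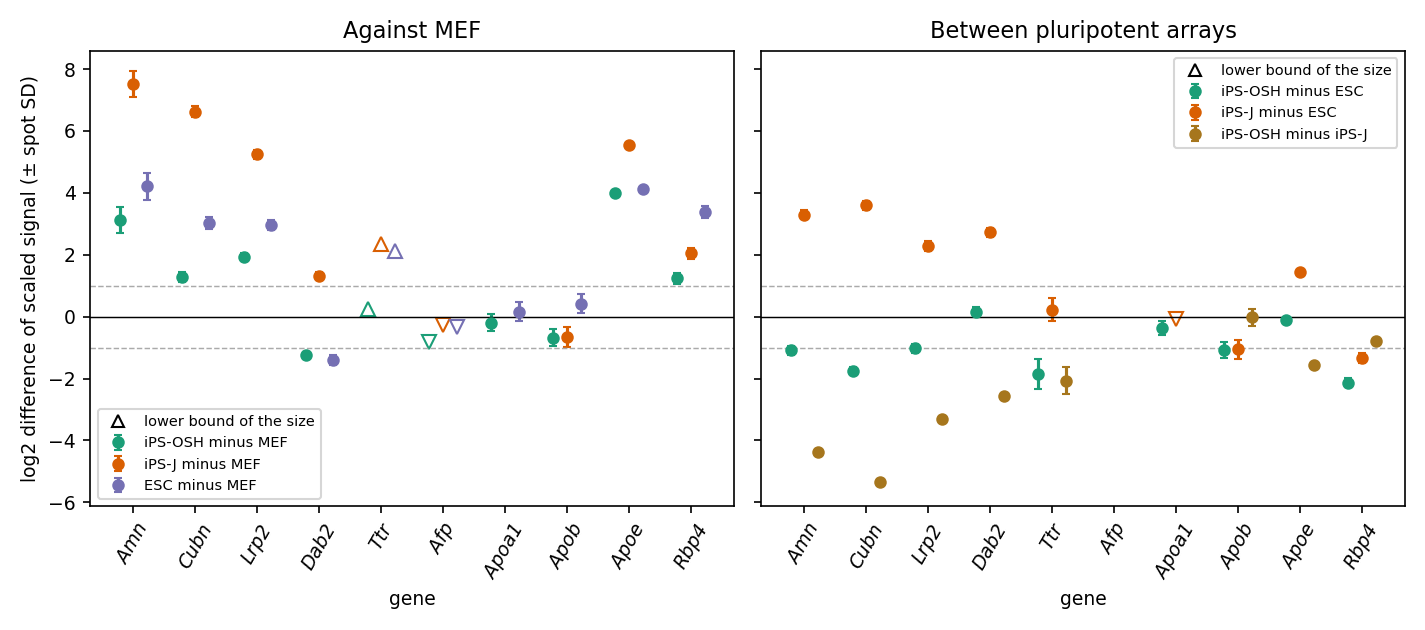
Log2 difference of the scaled signal (y axis) for each member (x axis), against MEF on the left and between pluripotent arrays on the right. Bars are the spot SD, or for Apoe and Apoa1 the standard error over spots. Open triangles are lower bounds, and dashed lines mark 2-fold. The points of iPS-J minus MEF reach 7.50 for Amn, and all points of iPS-OSH minus iPS-J that could be given lie at or below -0.03.

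Other genes of uptake and transport were counted by the same 2-fold rule. Of 20 endocytic partner genes, which include the clathrin adaptor subunits, 3 were at least 2-fold higher and 0 lower in iPS-J than in ESC, and 0 were higher and 4 lower in iPS-OSH than in iPS-J. Lrpap1, the chaperone that escorts megalin through the secretory pathway, had a signal of 15158 in iPS-OSH cells, 34355 in iPS-J cells, 9561 in ESC and 9792 in MEF, and was 1.92 higher on the log2 scale in iPS-J than in ESC. Myo6, the motor that moves endocytic vesicles along actin, had 59.6 in iPS-OSH cells, 159 in iPS-J cells, 82.7 in ESC and 85.6 in MEF. Gipc1, an adaptor that binds the megalin tail and Myo6, stayed within 2-fold in all 6 comparisons, at 5552, 3819, 4413 and 7969 in the same order of arrays.

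The relatives of megalin did not share its order. Of 11 measured genes of the low density lipoprotein receptor list, iPS-J had 1 higher and 6 lower relative to MEF, and 1 was higher and 1 lower in iPS-J than in ESC. Lrp1, a broad clearance receptor, had a signal of 13095 in iPS-OSH cells, 2028 in iPS-J cells, 2338 in ESC and 28270 in MEF. Vldlr and Lrp8, the receptors of reelin, were also highest in MEF, at 12106 and 1499. Among the pluripotent arrays, Vldlr did follow megalin, at 3866 in iPS-J, 1283 in ESC and 1200 in iPS-OSH. It was the 1 gene of this list higher in iPS-J than in ESC. The gene higher in iPS-J than in MEF was Sorl1, a sorting receptor, at 1692 in iPS-OSH cells, 2016 in iPS-J cells, 2653 in ESC and 122 in MEF.

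Genes of lipoprotein assembly and exchange were mixed. Of 16 genes, 7 were higher and 3 lower in iPS-J than in MEF, and of 14 compared with ESC, 4 were higher and 3 lower in iPS-J. Apoc1, which lies beside Apoe in the same gene cluster and coats lipoproteins, had a signal of 17165 in iPS-OSH cells, 36463 in iPS-J cells, 8557 in ESC and 570 in MEF, so that iPS-J was highest and MEF lowest, as for Apoe, with iPS-OSH minus ESC at 0.75 on the log2 scale. Apoc2, the cofactor of lipoprotein lipase, had 3682 in iPS-OSH and 6907 in iPS-J, against 376 in ESC and 550 in MEF. Mttp, the enzyme that loads lipid onto Apob, had 279 in iPS-OSH cells, 937 in iPS-J cells, 298 in ESC and 214 in MEF, so it was 1.73 higher on the log2 scale in iPS-J than in ESC while Apob was lower.

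In retinoid handling, 3 of 13 measured genes were higher and 9 lower in iPS-J than in MEF, and 2 were higher and 1 lower in iPS-J than in ESC. Stra6, the receptor that takes retinol from Rbp4, had a signal of 126 in iPS-OSH cells, 738 in iPS-J cells, 237 in ESC and 165 in MEF. Rbp4 was thus highest in ESC and its receptor in iPS-J. Cyp26a1, which degrades retinoic acid, had 173 in iPS-OSH cells, 902 in iPS-J cells and 607 in ESC while MEF gave no signal well above background.

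Of 16 measured genes for other plasma proteins, 7 were higher and 4 lower in iPS-J than in MEF, and 2 were higher and 6 lower in iPS-J than in ESC. Alb, which encodes albumin, was not well above background on any array. Gc, the vitamin D carrier and a ligand of megalin and cubilin, separated both iPS lines from the rest: its signal was 4349 in iPS-OSH and 4615 in iPS-J, against 68.0 in ESC, while the MEF signal was not well above background. Spink3, a secreted protease inhibitor, had 4366 in iPS-OSH cells, 12327 in iPS-J cells, 2271 in ESC and 248 in MEF.

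Transcription factors of endoderm were also high in iPS-J. All 13 transcription factors of the endoderm list were at least 2-fold higher in iPS-J than in MEF, with a median log2 difference of 4.24, against 8 in iPS-OSH and 11 in ESC. In iPS-J, 6 were higher than in ESC, 1 was lower and 6 were within 2-fold. Between the iPS lines, 10 of 13 were lower in iPS-OSH than in iPS-J, with a median of -2.16. The factors named below are the 6 that were higher in iPS-J than in ESC, so they do not stand for the whole list. Gata4 and Gata6, zinc finger factors of primitive endoderm, had signals of 718 and 1008 in iPS-OSH cells, 11136 and 6329 in iPS-J cells, 823 and 621 in ESC, and 301 and 1410 in MEF. Sox17 and Sox7 had 229 and 277 in iPS-OSH cells, 2468 and 4065 in iPS-J cells, 381 and 296 in ESC, and 294 and 88.3 in MEF. Foxa2, a forkhead factor, had 147 in iPS-OSH cells, 1797 in iPS-J cells and 336 in ESC, and Hnf4a, a nuclear receptor of visceral endoderm and liver, had 223, 2585 and 1073 in the same populations.

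**Figure D4:**
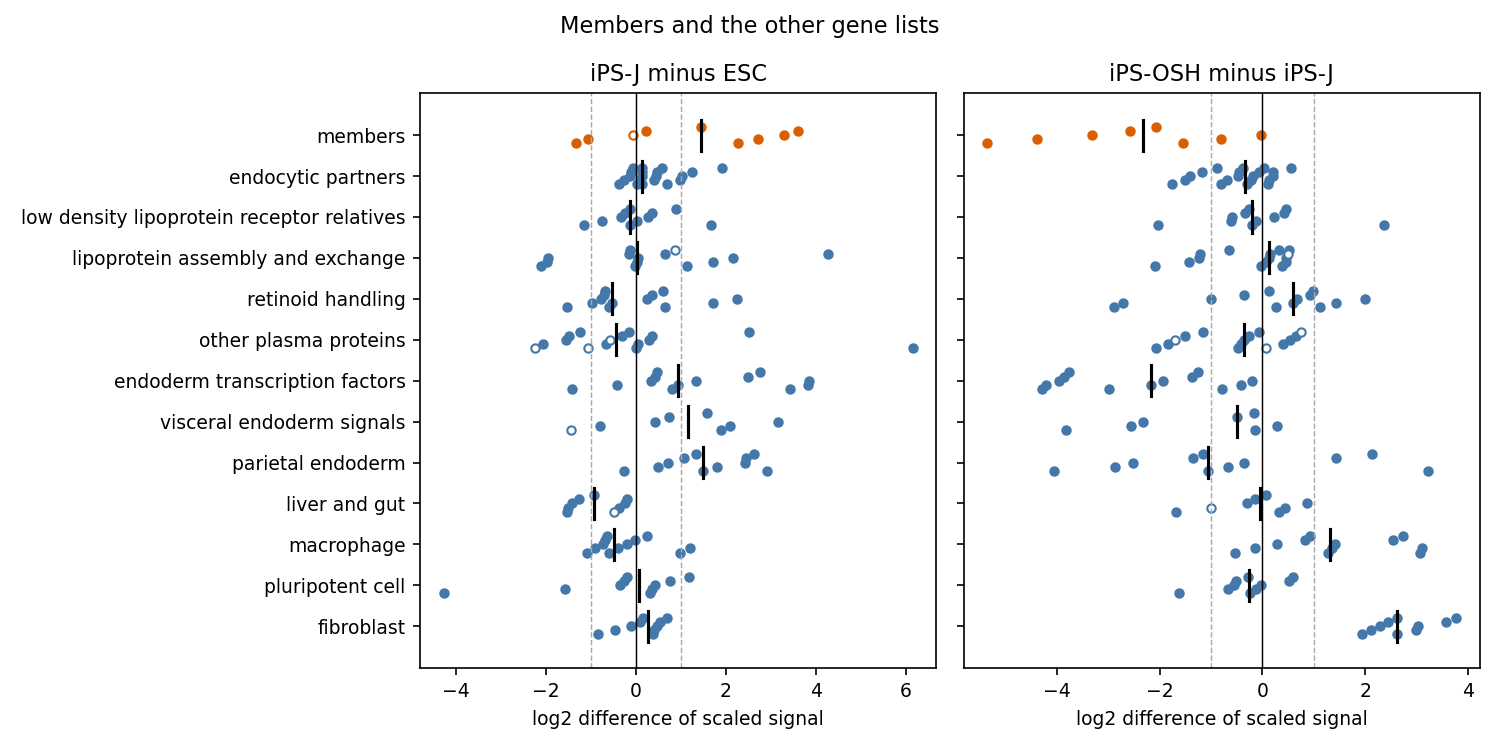
Log2 difference of the scaled signal (x axis) of each gene in the members and in 12 other lists (rows), for iPS-J minus ESC on the left and iPS-OSH minus iPS-J on the right, with the list median as a bar, lower bounds open and 2-fold as dashed lines. The members and the endoderm transcription factors have medians of 1.44 and 0.93 on the left and -2.32 and -2.16 on the right, and all 10 fibroblast markers lie above 0 on the right.

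Markers of other cells that a culture could hold were read the same way. Of 8 visceral endoderm signalling genes, 4 were higher and 1 lower in iPS-J than in ESC. Ihh, the hedgehog ligand of visceral endoderm, had a signal of 178 in iPS-OSH cells, 704 in iPS-J cells, 200 in ESC and 103 in MEF, and Cer1, an antagonist made by anterior visceral endoderm, was well above background only in ESC, at 102. Of 11 parietal endoderm genes, 8 were higher and 0 lower in iPS-J than in ESC, and 3 were higher and 6 lower in iPS-OSH than in iPS-J. Lama1, a laminin chain of the basement membrane that parietal endoderm lays down, had 7188 in iPS-OSH cells, 94970 in iPS-J cells, 18331 in ESC and 831 in MEF. Thbd, Plat and Snai1, also of the parietal endoderm list, ran the other way between the iPS lines: iPS-OSH minus iPS-J was 3.22, 2.13 and 1.43 on the log2 scale, against -4.06 for Lama1, and these 3 genes were highest in MEF, at 27819, 9180 and 26590. Of 9 measured liver and gut genes 0 were higher and 4 lower in iPS-J than in ESC, and the summed signal of the list was 0.925 in iPS-OSH cells, 1.05 in iPS-J cells, 2.16 in ESC and 1.43 in MEF.

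The genes whose pattern over the 4 arrays was closest to each member were named by the distance between mean-centred log2 signals, a description over 4 points. For Amn these were Foxa2, Tcf23 and Lama1, at distances of 0.58 to 0.63, and 8 genes lay within a distance of 1. For Cubn they were Hkdc1, Habp2 and Srgn, with 5 genes within 1, and for Lrp2 they were Pdzd3, Pcbd1 and Bend5, with 16. Dab2 had Pth1r, Entpd7 and Dhrs7 nearest and 47 within 1. For Apoe they were Krt8, Tal2 and Palm3, with 68 within 1, and for Rbp4 Nrg4, Prok2 and Slc12a8, with 299. Among the members themselves, Amn and Cubn lay 1.33 apart, Cubn and Lrp2 1.48 and Amn and Lrp2 1.60, while Dab2 lay 3.42 to 4.85 from these 3. Pairs with carriers were as close: Apoa1 and Apob lay 0.63 apart, Ttr and Rbp4 1.27, Lrp2 and Ttr 1.55, and Lrp2 and Apoe 1.61. The dim members Apoa1 and Apob had 3589 and 4160 genes within 1. Dim signals entered these distances as measured. Among the genes nearest to Amn, for example, Foxa2 and Tcf23 had signals of 16.9 and 15.7 in MEF. Both lie under 34.0, the lowest MEF signal well above background.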

How the data were processed

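Total RNA of 4 cell populations was amplified, labelled with Cy3 and hybridized to 1-colour Agilent arrays, all on 1 slide, per the labels' protocols. The deposited scanner files hold the intensity of each spot, which Agilent Feature Extraction 10.5.1.1 background-corrected within each array, per the file headers. Rounded copies of that intensity make up the deposited value tables, within 0.497% of the scanner values. Coordinates are those of the files (mm9).

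From there, log2 processed signals were scaled to the 75th percentile of all non-control spots of their array, after 203 to 531 spots per array called uneven or outlying were left out. The brightest probe stood for a gene. Of 55681 probes, 54963 had a value on all 4 arrays, and 31920 of 35242 genes were well above background somewhere. The MEF file names 1732 spots differently, 2 member probes among them, so probes were matched by their identifiers. A comparison took in the genes detected on either array, that is with most spots of the probe well above background. Where the other array was dim, its level was taken as the higher of the lowest signal well above background and its own signal, and the difference is given as "at least". With 1 array per group, a 2-fold difference is a rule of size, and no p-value was computed. Spot SDs came from the 50 probes printed 10 times that were nearest in brightness. Only the comparison rule was tested on simulated data, with planted differences in probes detected on all arrays and a small check of the bounds. Python 3.11.15, pandas 2.3.3 and limma 3.58.1 were used, the last for normexp correction (offset 50) and quantile normalization.

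All members are named. From each other list up to 4 genes with the widest range over the arrays are named, plus a few fixed ones, and 3 nearest genes per member. Values of 2 genes of the other lists are not reported here. The members and lists were chosen with earlier results of these data known. The alternatives were 2 background or between-array corrections, other scalings, other detection rules, the median over probes and the deposited values.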

Additional observations from a re-analysis of the deposited data

Results flagged for a closer look

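Dab2 moved in opposite directions against the same MEF array: its log2 difference was -1.25 in iPS-OSH cells, 1.31 in iPS-J cells and -1.41 in ESC. With 1 array per population the difference between these effects was not tested. No other member was at least 2-fold higher than MEF in one pluripotent population and at least 2-fold lower in another.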

How the results depend on the processing

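No paired analysis was possible because each population has 1 array, and for the same reason no replicate could be left out; all arrays lay on 1 slide, so no slide block could be fitted. All 39 member differences past 2-fold kept their direction in every alternative that gave a value. Requiring detection on both arrays, or dropping the filter, cannot change a difference measured on both arrays, and all alternatives reuse the same arrays. Of the counts of members past 2-fold under an alternative, 95 stayed within 1.5 times the count reported and 13 did not, all of them counts of lower members. The count of lower members in iPS-J against ESC (2) was 1 with normexp correction, quantile normalization, spike-in scaling and detection above the spike-in control probes. In iPS-OSH against ESC (6) it was 3 with spike-in scaling and with the deposited values. Without a filter on dim probes it was 2 in iPS-OSH cells, 1 in iPS-J cells and 2 in ESC against MEF. With the median over probes it was 1 in iPS-J and 0 in ESC against MEF, and with the deposited values 2 in iPS-OSH and 1 in iPS-J against MEF. The cause was not tested, except that leaving out the filter admits probes near background. Another scaling or correction moved the median of all genes by -0.49 to 0.39 on the log2 scale. Of genes past 2-fold, the share higher was 57.2% in ESC against MEF as reported, 33.5% with spike-in scaling and 68.4% with the percentile over probes detected on all arrays. It was 35.3% in iPS-OSH and 39.7% in iPS-J against MEF as reported, and 28.7% and 26.0% with spike-in scaling. Against ESC it was 24.8% in iPS-OSH and 18.3% in iPS-J, and 46.5% and 47.3% with quantile normalization. Signal over background limits Afp, Apoa1 and Ttr, whose values rest on spots near the limit of detection.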
